A study of Mus musculus with 6 samples.

Results

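Interferon-stimulated genes are the genes that cells switch on when an interferon binds its receptor. A list of 37 such genes was followed in ribosome-bound RNA of lung pericytes, the mural cells that wrap capillaries, from control mice and from mice labelled iPCKO, in which the genes of the transcriptional co-activators Yap1 and Taz (gene Wwtr1) were floxed for deletion in these cells. The genes were chosen by symbol, and 36 of the 37 were found among the 21603 genes of the deposited values through their Ensembl identifiers in GENCODE M21. Mx2 was not analysed here. Ifit2, which encodes an RNA-binding protein of the IFIT family, fell in the iPCKO samples to 52.8% of its control mean. Psmb8, which encodes a catalytic subunit of the immunoproteasome, rose to 206.1%, a call that was lost in 5 of 6 fits that each left out a sample, without the filter on low values and without the intensity trend. None of the other 27 members that could be tested passed the thresholds.

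Type I and type III interferons signal through the kinases Jak1 and Tyk2 to a transcription factor complex that holds Stat2 and Irf9 and binds a DNA element called the interferon-stimulated response element (ISRE). Type II interferon (interferon-gamma) signals through Jak1 and Jak2 to genes that carry the interferon-gamma activated site (GAS), Irf1 among them. The induced products detect viral RNA, block translation of viral messages, restrict viral entry or budding, tag proteins with Isg15, and prepare peptides for presentation on MHC class I.

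The 3 control and 3 Yap1,Wwtr1 iPCKO samples came from lungs of mice on the C57BL/6 background, taken at postnatal day 8 after tamoxifen over the first postnatal days. All 6 carried Pdgfrb(BAC)-CreERT2, a tamoxifen-inducible Cre under regulatory sequences of Pdgfrb, and a floxed Rpl22 allele that adds an HA tag to a ribosomal protein after recombination, so that anti-HA beads pull down ribosomes of recombined cells. The iPCKO mice had 2 floxed copies of both Yap1 and Wwtr1 (labelled Yap1-/-;Wwtr1-/-). The controls had 1 floxed and 1 wild-type copy of each (labelled Yap1+/-;Wwtr1+/-), so they too carried Cre, received tamoxifen and could lose a copy of each gene. Cre can act in any Pdgfrb-expressing lung cell, which limits the pulldown as a model of pericytes, and RNA of other cells was present in it, as the markers given at the end show. Values are RPKM, that is, reads scaled to the exon length of the gene and to the size of the library, and can therefore be compared between genes of different length.

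Yap1 was lower in every iPCKO sample, at 5.25 to 5.83 RPKM against 11.5 to 13.2 in controls, whereas Wwtr1 overlapped between the groups, at 60.3 to 63.5 RPKM against 53.8 to 71.3 (log2 fold change 0.05, limma adjusted p = 0.82). The values are sums over whole genes and cannot show whether the floxed part of Wwtr1 was lost, and iPCKO is used here as the samples' label. The paper reports Western blots of whole lung at a later age, in which both Yap1 and Taz protein were strongly reduced in the double mutants. Of 8 pericyte markers 3 rose (Cspg4, Kcnj8 and Abcc9, to between 202.4% and 222.2% of the control mean), 2 fell (Notch3 to 52.1% and Rgs5 to 43.9%) and 3 did not pass, among them Pdgfrb at 1193 to 1666 RPKM in all 6 samples. Sequencing depth, estimated from the spacing of low values, ran from 14.2 to 39.6 M reads, with iPCKO 2 the deepest library and iPCKO 3 the shallowest. At that depth 1 read on a transcript of 1 kb was worth 0.025 to 0.07 RPKM.

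Promoters were read first, since they show which members carry the DNA elements of the pathway. The list was made of genes known to respond to interferon, so such elements were likely among them and the shares below are descriptions only. RefSeq promoter windows of 300 bases (250 before and 50 after the transcription start, GRCm38.p6) were found for 29 of the 37 members. The core of the ISRE, GAAANNGAAA on either strand, was present for 15 of 29 members (51.7%), compared with 3.99% of the 27025 genes with a window. The GAS, TTCNNNGAA, was present for 9 of 29 (31%) against 9.55% of all genes. The letters GGAATG, bound by the TEAD factors through which Yap1 and Taz act, were present in the windows of Bst2 and Gbp2, or 2 of 29 members (6.9%), against 16.6% of all genes. The ISRE and GAS patterns can share bases, as they do in Bst2. Psmb9, Tap1, Irf7, Irf9, Xaf1, Oasl1, Oasl2, Trim25, Ifitm1 and Ifi44 held neither the ISRE core nor the GAS in this window, which says only that these exact letters are not there.

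The 6 stretches printed here, all upstream of the annotated start, are those of members on which the results below turn or their nearest relatives, with the match in capitals, 5′ to 3′ on the gene's strand. Isg15, Ifit1, Ifit3 and Gbp7 show the ISRE core, and Irf1 and Ifit2 show the GAS.
Isg15, chr4:156200855-156200904, minus strand, 3 overlapping ISRE cores: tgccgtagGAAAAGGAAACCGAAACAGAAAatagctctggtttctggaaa
Ifit1, chr19:34640784-34640833, plus strand, 2 ISRE cores read on the opposite strand: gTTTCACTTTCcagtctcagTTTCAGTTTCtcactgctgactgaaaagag
Ifit3, chr19:34583387-34583436, plus strand, ISRE core read on the opposite strand: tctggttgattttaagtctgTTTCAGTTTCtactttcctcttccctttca
Gbp7, chr3:142530263-142530312, plus strand, ISRE core read on the opposite strand: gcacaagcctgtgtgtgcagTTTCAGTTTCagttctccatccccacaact
Irf1, chr11:53769904-53769952, plus strand, GAS: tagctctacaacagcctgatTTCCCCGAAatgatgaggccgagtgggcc
Ifit2, chr19:34550444-34550481, plus strand, GAS: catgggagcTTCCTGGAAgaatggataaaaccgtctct
The first base of the match lay 90 bases before the start in Irf1 and 241 before it in Ifit2. Ifit2 had no ISRE core in its window, unlike its neighbours Ifit1 and Ifit3. For Ifit2 too, this says only that these exact letters are not in that window. In Psmb8 a GAS lay 97 bases before the RefSeq start, inside the first exon of longer GENCODE transcripts. Tap1 and Psmb9 are transcribed away from each other from starts 225 bases apart, and their windows share 275 bases.

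The comparison of iPCKO with control samples asked whether interferon-stimulated genes differed between pericyte RNA of the 2 genotypes. Of the 36 members, 29 reached 1 RPKM in at least 3 of 6 samples and were tested with limma on log2(RPKM + 0.1), over 12034 genes in all. A gene was said to rise or fall where the adjusted p was under 0.01 and the log2 fold change was beyond 0.5 in either direction. By these thresholds 1 member rose and 1 fell, or 6.9% of 29, while 6.79% of all tested genes changed (4.11% rose and 2.68% fell), so the share among the members was close to that of all genes. The median log2 fold change of the tested members was -0.07 and that of all genes 0.0, with 12 members above 0 and 17 below. In 2 members, Psmb8 and Tap1, all iPCKO samples lay above all controls, against 18.3% of all genes, and in 2 others, Ifit2 and Ifi27, all lay below, against 17.1%. In bulk RNA of this kind, fewer cells of a type and less RNA per cell cannot be told apart.

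**Figure D1:**
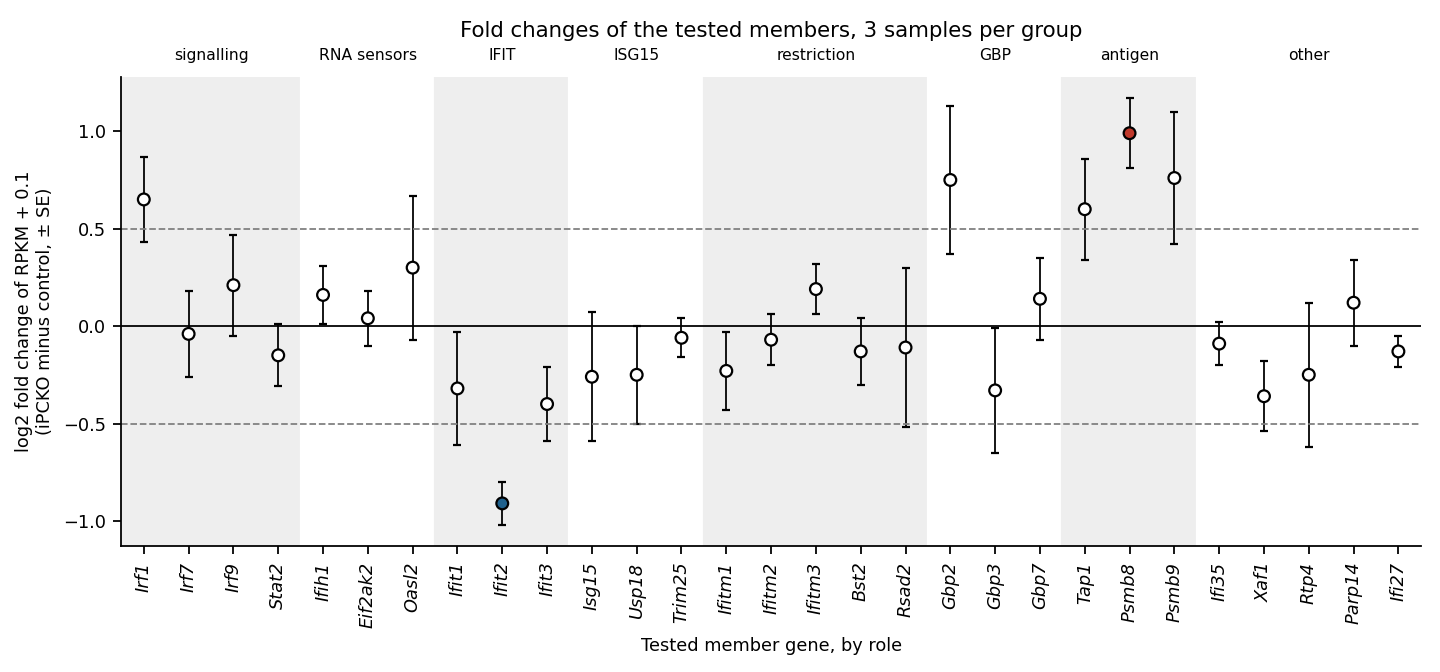
Log2 fold change (iPCKO minus control, on the log2(RPKM + 0.1) scale) of the 29 tested members, grouped by role, with the standard error from limma as bars, 3 samples per group and dashed lines at the fold threshold of 0.5. Filled points passed the thresholds: Ifit2 at -0.91 and Psmb8 at 0.99, while the other 27 members are drawn open.

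Levels of the members spanned a wide range in both groups. Ifitm2 and Ifitm3, which encode membrane proteins that block viral entry, were the most abundant, at 354 to 432 RPKM and 189 to 274 RPKM. Ifitm1 followed at 50.2 to 86.3 RPKM and Ifi27, which encodes a small hydrophobic protein, at 34.6 to 41.3 RPKM. At the other end, 7 members did not reach the filter and are described apart.

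**Figure D2:**
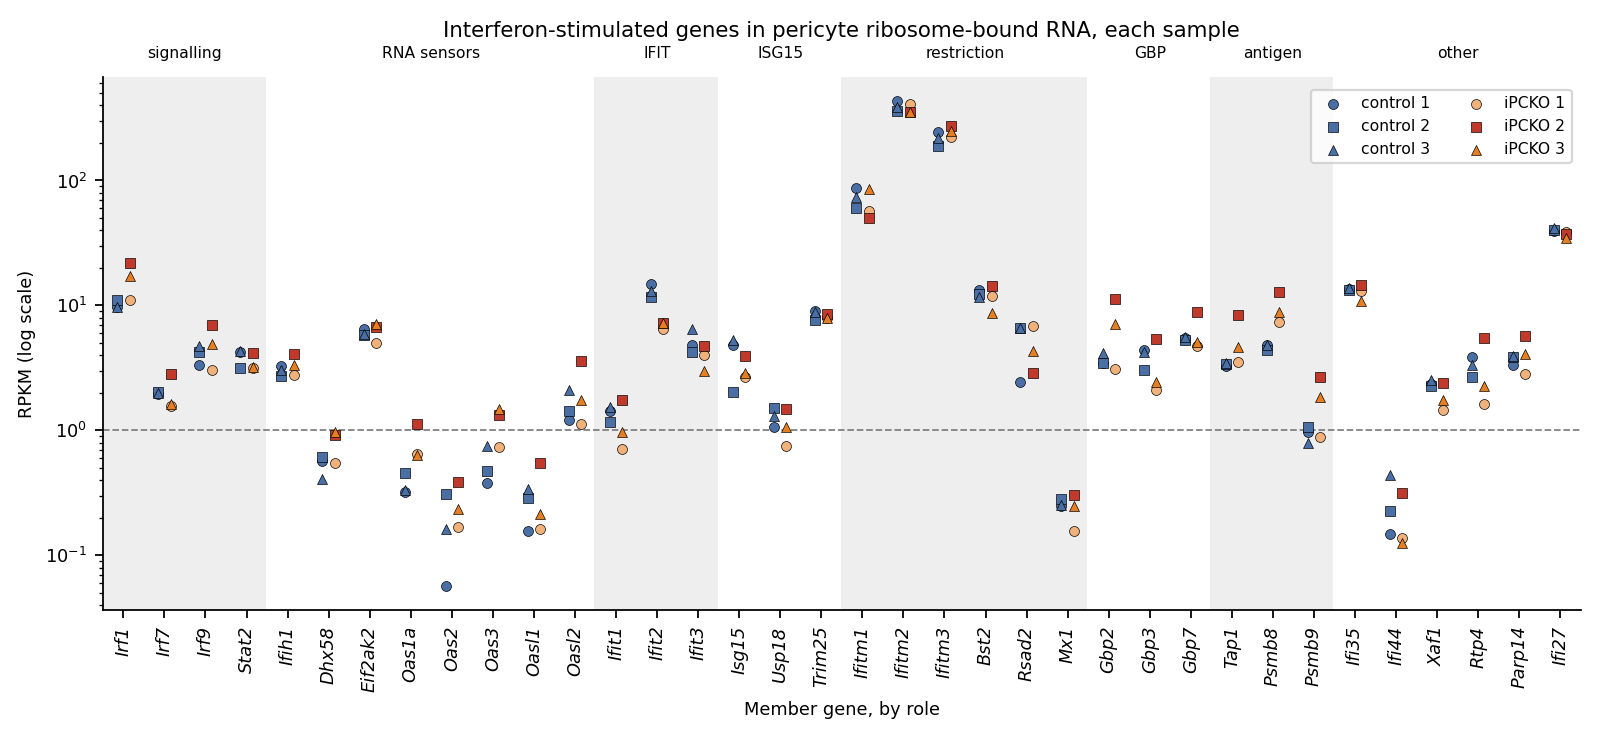
RPKM (log axis) of each of the 36 members in each of the 6 samples, grouped by role, with controls in blue to the left and iPCKO samples in orange and red to the right of each gene. The values run from 0.057 to 432 RPKM, the dashed line marks 1 RPKM, and iPCKO 2 (red squares) is the highest of the 6 samples in 17 of the 29 tested members.

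Among the ligands, receptors and signalling genes upstream of the members, the ligands were close to or at 0. Of 15 listed interferon ligands, 13 were present in the files, 6 were listed at 0 in all 6 samples, among them Ifnb1 and Ifng, and none exceeded 0.196 RPKM. The type I receptor genes Ifnar1 and Ifnar2 had log2 fold changes of -0.10 and -0.17 (limma adjusted p = 0.52 and 0.22). Ifnar2 was lower in all iPCKO samples, as were 17.1% of all tested genes. Ifngr1, the ligand-binding chain of the interferon-gamma receptor, was higher in all iPCKO samples, as were 18.3% of all tested genes. Its log2 fold change of 0.44 missed both thresholds (limma adjusted p = 0.048).

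Of the 19 tested receptor and signalling genes, 4 rose and 0 fell in limma, against 4.11% and 2.68% of all tested genes, and 6 were higher and 0 lower at an unadjusted p under 0.05. Ptpn6, a phosphatase abundant in blood cells, rose by 1.43 on the log2 scale, Irf5 by 1.08, Socs3, a feedback inhibitor of cytokine receptors, by 0.95, and Irf8 by 0.61. Ptpn6, Irf5 and Irf8 are known for their expression in leukocytes. In limma 0 of 11 tested genes of nucleic acid sensing passed, with 1 higher and 3 lower at an unadjusted p under 0.05. Myd88, an adaptor of Toll-like receptors, had an adjusted p of 0.0077 but a log2 fold change of 0.46, under the fold threshold.

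The transcription factor members were Irf1, Irf7, Irf9 and Stat2. Irf1 (chr11:53770014-53778374), which activates antiviral and MHC class I genes, measured 9.79, 11.1 and 9.68 RPKM in the controls. In iPCKO samples it measured 11.0, 21.8 and 17.1 RPKM. Only iPCKO 1 fell within the control range. The log2 fold change of Irf1 was 0.65 (SE 0.22, n = 3 per group, limma adjusted p = 0.079), short of the threshold, and with iPCKO 1 left out it was 0.92 with an adjusted p of 0.0022 (0.0022 to 0.21 as each of the 6 samples was left out in turn). Irf7, Irf9 and Stat2, of which Irf7 amplifies type I interferon production, had log2 fold changes between -0.15 and 0.21 and overlapping groups.

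Ifih1, which encodes the viral RNA sensor Mda5, Eif2ak2, which encodes the RNA-activated kinase Pkr, and Oasl2, an oligoadenylate synthetase-like gene, were the tested members of the RNA sensors. Oasl2 had the largest difference of them. It measured 1.22, 1.43 and 2.09 RPKM in controls and 1.12, 3.61 and 1.74 RPKM in iPCKO samples, with 1 value, that of iPCKO 2, above the controls. Its log2 fold change was 0.30 (SE 0.37, limma adjusted p = 0.64), and Ifih1 and Eif2ak2 had log2 fold changes of 0.16 and 0.04.

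The remaining sensors, Dhx58, Oas1a, Oas2, Oas3 and Oasl1, stayed below the filter, as did Mx1, a dynamin-like antiviral GTPase, and Ifi44. Oas1a, whose product makes the oligoadenylates that activate RNase L, measured 0.323, 0.456 and 0.336 RPKM in controls and 0.651, 1.12 and 0.633 RPKM in iPCKO samples. All iPCKO samples lay above all controls, as they did in 18.3% of the genes that passed the filter. The two-sided exact permutation test gave p = 0.1, the smallest that 3 against 3 samples allow (adjusted p = 0.7 over the 7 members below the filter). Oas3 measured 0.379, 0.472 and 0.744 RPKM in controls and 0.732, 1.32 and 1.49 RPKM in iPCKO samples, with 1 iPCKO sample inside the control range (exact permutation p = 0.2). The other 5 had differences between -0.32 and 0.51 on the log2(RPKM + 0.1) scale and exact permutation p-values from 0.3 to 0.8. Several of these values rest on few reads.

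The 3 IFIT genes lie within a cluster on chromosome 19 and encode proteins that bind viral RNA or translation initiation factors and hold back translation. Ifit2 (chr19:34550694-34576419) measured 14.9, 11.8 and 13.0 RPKM in controls, with a mean of 13.2 ± 1.57 (SD, n = 3). In iPCKO samples it measured 6.47, 7.23 and 7.27 RPKM, with a mean of 6.99 ± 0.449 (SD, n = 3). The 3 iPCKO samples lay close together and well under the lowest control. The log2 fold change of Ifit2 was -0.91 (SE 0.11, limma adjusted p = 0.001), and Ifit2 passed the thresholds whichever of the 6 samples was left out, with fold changes from -0.99 to -0.82.

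Ifit1 and Ifit3 had negative log2 fold changes as well, -0.32 (SE 0.29) and -0.40 (SE 0.19), but their groups overlapped and limma gave adjusted p-values of 0.51 and 0.21. In controls Ifit2 stood at 8.52 to 10.4 times the RPKM of Ifit1 and 2.02 to 3.09 times that of Ifit3. In iPCKO samples these ratios were 4.11 to 9.10 and 1.54 to 2.41. Both ratios overlapped between the groups (exact permutation p = 0.2 for each, two-sided, adjusted p = 0.27 over 4 ratios that were chosen after the values were seen), so a fall particular to Ifit2 was not shown. Ifit3 has a near-identical copy, Ifit3b, with a log2 fold change of -0.41, and reads of the pair may be divided between them.

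**Figure D3:**
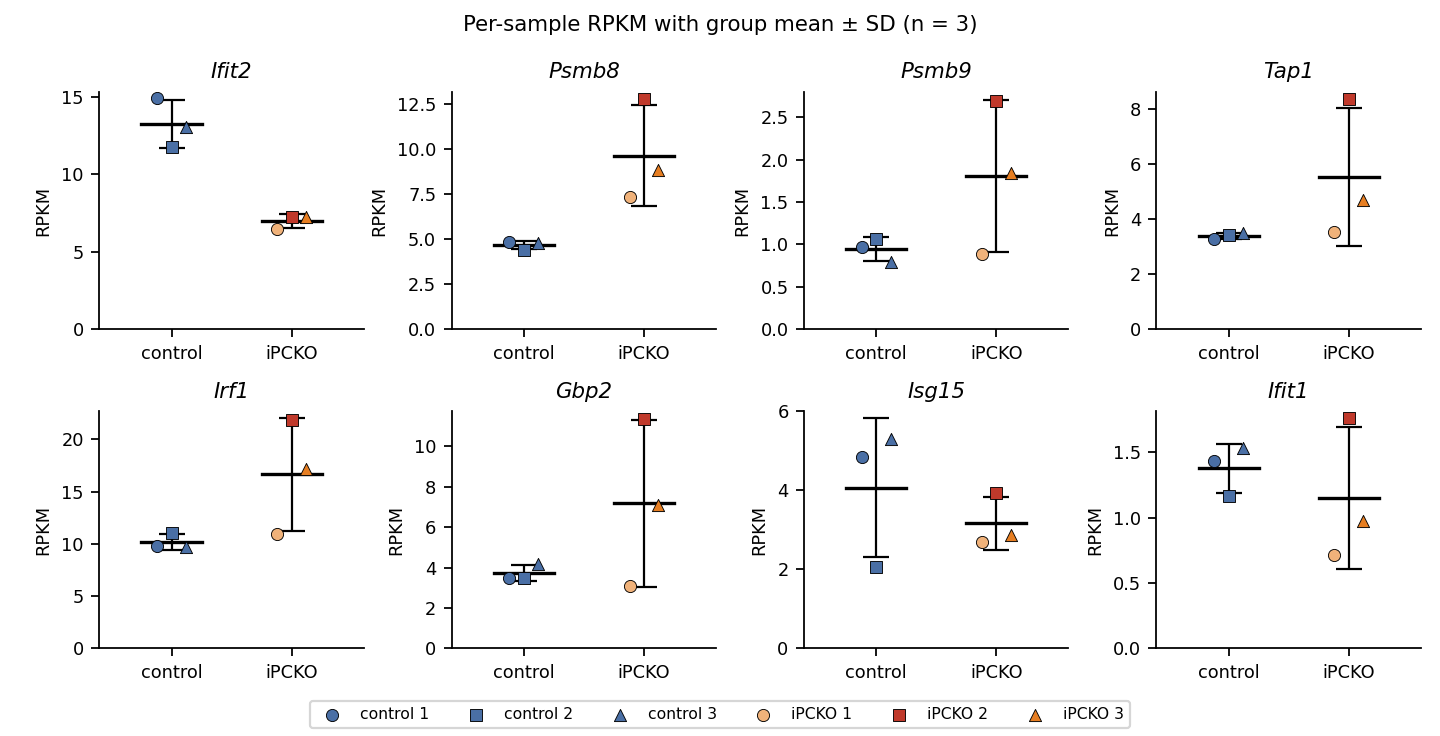
RPKM of 8 members in each sample (linear axes from 0, one scale per gene), with horizontal lines for the group means and bars for the SD, n = 3. Ifit2 separates downward and Psmb8 upward, iPCKO 2 (red squares) is the highest sample for Psmb8, Psmb9, Tap1, Irf1, Gbp2 and Ifit1, and Isg15 overlaps between the groups.

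Isg15, a ubiquitin-like modifier, Usp18, the protease that removes it, and Trim25, a ubiquitin ligase that acts on RNA sensing, make up the Isg15 group. Isg15 (chr4:156199424-156200818), whose promoter holds the 3 overlapping ISRE cores printed above, measured 4.83, 2.05 and 5.30 RPKM in controls. In iPCKO samples it measured 2.69, 3.94 and 2.88 RPKM. Control 2 was the lowest of all 6 samples and the groups overlapped. The log2 fold change of Isg15 was -0.26 (SE 0.33, limma adjusted p = 0.64), and those of Usp18 and Trim25 were -0.25 and -0.06.

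The restriction factors comprised Ifitm1, Ifitm2 and Ifitm3, which lie together on chromosome 7, Bst2 (tetherin, which holds budding virus at the cell surface) and Rsad2 (viperin). Ifitm1 had the largest difference, with 86.3, 60.7 and 74.0 RPKM in controls and 56.8, 50.2 and 84.7 RPKM in iPCKO samples. Of the iPCKO samples 2 lay under the lowest control and the other near the highest, and the log2 fold change was -0.23 (SE 0.20, limma adjusted p = 0.50). Ifitm2, Ifitm3, Bst2 and Rsad2 had log2 fold changes from -0.13 to 0.19 with overlapping groups. Rsad2 ranged within controls from 2.45 to 6.62 RPKM and within iPCKO samples from 2.89 to 6.84 RPKM, a spread wider than the difference between the group means. Ifitm6, a relative of these genes that was not on the list and is expressed in myeloid cells, rose from 1.86 to 4.13 RPKM in controls to 10.8, 26.9 and 70.0 RPKM in iPCKO samples, by 3.31 on the log2 scale (SE 0.58, limma adjusted p = 0.0063).

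Gbp2, Gbp3 and Gbp7 encode guanylate-binding proteins, GTPases that attack the membranes of intracellular pathogens and that interferon-gamma induces strongly. Gbp2 (chr3:142620602-142638008) measured 3.49, 3.49 and 4.18 RPKM in controls and 3.08, 11.3 and 7.11 RPKM in iPCKO samples. iPCKO 1 was the lowest of all 6 samples and iPCKO 2 the highest. The log2 fold change was 0.75 (SE 0.38, limma adjusted p = 0.23), and it was 1.25 with an adjusted p of 0.0037 once iPCKO 1 was left out (0.0037 to 0.56 over the 6 samples left out in turn). In Gbp3 and Gbp7 the log2 fold changes were -0.33 and 0.14, iPCKO 1 was again the lowest and iPCKO 2 the highest of the 6 samples.

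Tap1, Psmb8 and Psmb9 lie side by side in the MHC region of chromosome 17. Tap1 encodes a chain of the transporter that carries peptides into the endoplasmic reticulum, and Psmb8 and Psmb9 encode immunoproteasome subunits that cut peptides for MHC class I. Psmb8 (chr17:34197721-34201454) measured 4.84, 4.40 and 4.79 RPKM in controls, with a mean of 4.68 ± 0.241 (SD, n = 3). In iPCKO samples it measured 7.34, 12.8 and 8.82 RPKM, with a mean of 9.64 ± 2.81 (SD, n = 3). Every iPCKO sample lay above every control. The log2 fold change of Psmb8 was 0.99 (SE 0.18, limma adjusted p = 0.0077). This call depended on the choice of samples and settings: Psmb8 passed in 1 of 6 fits that left out a sample, that without iPCKO 1, with adjusted p-values over the 6 fits from 0.0019 to 0.029 and fold changes from 0.77 to 1.17, and it also missed the threshold when genes were not filtered (0.015) and when the intensity trend was dropped (0.013).

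Psmb9 (chr17:34181987-34187764) measured 0.971, 1.07 and 0.788 RPKM in controls and 0.891, 2.69 and 1.84 RPKM in iPCKO samples. Tap1 (chr17:34187553-34197225) measured 3.27, 3.42 and 3.48 RPKM in controls and 3.54, 8.35 and 4.68 RPKM in iPCKO samples. For both, iPCKO 1 was at or near the control level and iPCKO 2 was the highest sample. The log2 fold changes were 0.76 (SE 0.34) for Psmb9 and 0.60 (SE 0.26) for Tap1, and limma gave adjusted p-values of 0.18 and 0.17. The annotated ends of the pair overlap on opposite strands, and the strand setting of the read counting was not given in the sources used here. The ratio of Psmb8 to Tap1 was 1.29 to 1.48 in controls and 1.53 to 2.07 in iPCKO samples, without overlap (exact permutation p = 0.1, adjusted p = 0.27 over the 4 ratios), and the ratio of Psmb8 to Psmb9 overlapped (p = 0.7, the same exact test).

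The other genes of MHC class I presentation came from the list of further interferon-stimulated genes. Tap2, Tapbp, Psme1, Psme2, Psmb10 and B2m had log2 fold changes from 0.30 to 0.53, and in each of them all iPCKO samples lay above all controls, as they did in 18.3% of all tested genes. The limma adjusted p-values ran from 0.012 for Psme1 to 0.22 for Tapbp, so none passed. Nlrc5, the transactivator of MHC class I genes, stayed below the filter, at 0.325, 0.652 and 0.467 RPKM in controls and 0.395, 2.81 and 1.78 RPKM in iPCKO samples.

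The remaining members have varied roles: Ifi35, Xaf1, a pro-apoptotic factor, Rtp4, Parp14, an ADP-ribosyltransferase, and Ifi27. Xaf1 had the largest difference, at 2.36, 2.25 and 2.51 RPKM in controls and 1.46, 2.39 and 1.75 RPKM in iPCKO samples. iPCKO 2 lay inside the control range and the other 2 below it, and the log2 fold change was -0.36 (SE 0.18, limma adjusted p = 0.23). The log2 fold changes of the other 4 lay between -0.25 and 0.12. Ifi27 was the only other member, besides Ifit2, without overlap downward, with a log2 fold change of -0.13 (limma adjusted p = 0.33).

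The 3 iPCKO samples differed from each other more than the controls did. The median coefficient of variation of the tested members was 29.1% among iPCKO samples and 10.8% among controls, whereas over all tested genes it was 8.9% and 9.3%. iPCKO 2 was the highest of the 6 samples for 17 of 29 members, against 12.3% of all genes, and the highest of the iPCKO samples for 23 of 29, against 27.9% of all genes. iPCKO 1 was the lowest of the iPCKO samples for 22 of 29, against 32% of all genes. These counts describe single libraries, were made after the values were seen and have no replicate check.

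**Figure D4:**
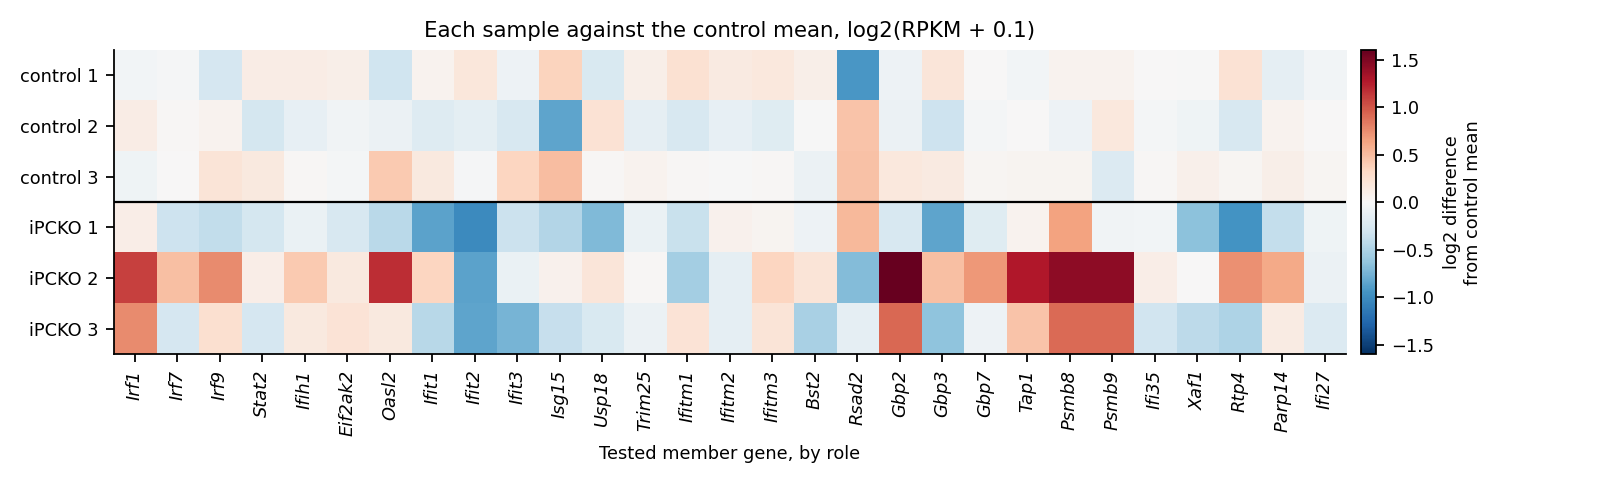
Difference of each sample from the control mean on the log2(RPKM + 0.1) scale for the 29 tested members (columns, by role), with controls in the upper 3 rows and iPCKO samples in the lower 3; red is higher and blue lower. The iPCKO 2 row is mostly red, with 1.59 for Gbp2, the iPCKO 1 row is mostly blue, and Ifit2 is blue in all 3 iPCKO rows.

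Against the control mean, the median log2 difference of the tested members was -0.26 in iPCKO 1, 0.34 in iPCKO 2 and -0.14 in iPCKO 3, while over all tested genes it was 0.03, 0.01 and -0.03. In iPCKO 2, 18 of 29 members (62.1%) exceeded the highest control, compared with 31.8% of all genes. In iPCKO 1 the count was 3 of 29 (10.3%) against 35.6%, and in iPCKO 3 it was 10 of 29 (34.5%) against 30.9%. Single controls varied as well. Set against the highest of the other controls, the counts were 11 of 29 (37.9%) in control 1, 4 (13.8%) in control 2 and 14 (48.3%) in control 3. Over all genes these shares were 43.8%, 27% and 29.1%. The 3 iPCKO samples did not share a direction over the list.

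The members with the largest folds over the control mean in iPCKO 2 were not those of a single role. In that sample Gbp2 stood at 3.05 times its control mean, Oas1a at 3.02, Psmb9 at 2.86, Psmb8 at 2.73, Oas3 at 2.49, Tap1 at 2.46, Oasl2 at 2.29, Oas2 at 2.19, Irf1 at 2.14 and Oasl1 at 2.11. Among these, Oas1a, Oas2, Oas3 and Oasl1 were below the filter, so their folds rest on low values. Oas3 was higher still in iPCKO 3, at 1.49 RPKM against 1.32 in iPCKO 2. Other members did not follow. Isg15 stood at 0.97 times its control mean in iPCKO 2, Trim25 at 1.01, Ifitm1 at 0.68, and Ifit2 and Rsad2 at 0.55.

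The further interferon-stimulated genes showed the same ordering of samples. Of 40 tested genes on that list, 28 were highest in iPCKO 2, and their median log2 difference from the control mean was -0.04 in iPCKO 1, 0.56 in iPCKO 2 and 0.14 in iPCKO 3. The largest folds in iPCKO 2 were those of Igtp at 3.49, Irgm2 at 2.89, Slfn2 at 2.84, Gbp4 at 2.53 and Ifi204 at 2.5 times the control mean. Igtp, Irgm2 and Gbp4 encode GTPases that interferon-gamma induces. Slfn2 was higher still in iPCKO 3, at 17.5 RPKM against 13.6 in iPCKO 2. The annotated spans of Igtp and Irgm2 overlap on the same strand, as do those of Gbp4 and Gbp9, so values within each pair may not be independent. By the thresholds 2 of these 40 genes rose, Ube2l6, which encodes the conjugating enzyme for Isg15 (log2 fold change 1.0, limma adjusted p = 0.00065), and Lgals3bp (0.58, 0.0095), and 1 fell, Slfn5 (-0.81, 0.0098), or 7.5% of 40, close to the 6.79% of all tested genes. In Ube2l6, with 19.6 to 24.8 RPKM in controls and 40.6 to 47.5 RPKM in iPCKO samples, the 3 iPCKO values were near each other.

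The marker sums of leukocytes, neutrophils, macrophages and platelets were higher in all iPCKO samples than in controls and differed among the iPCKO samples. Those of the other blood cells, given below, were not higher in all iPCKO samples. The summed RPKM of 10 leukocyte markers was 58.6 to 81.9 in controls and 150.0, 200.2 and 259.9 in iPCKO 1, 2 and 3, and 8 of the 10 rose, against 4.11% of all tested genes. That of 10 neutrophil markers was 88.3 to 131.9 in controls and 453, 2006 and 5006, and 5 rose. Both sums were highest in iPCKO 3, and their relation to the levels of the members was not tested.

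The macrophage sum was 16.1 to 25.4 in controls and 29.4, 53.5 and 42.3 RPKM in iPCKO 1, 2 and 3, and was highest in iPCKO 2. In all 8 tested macrophage markers the iPCKO samples lay above all controls, against 18.3% of all genes, and 6 were the highest in iPCKO 2, against 12.3%. Marco and Itgax were under 1 RPKM in every control and passed the filter only through the iPCKO samples. Their lack of overlap was therefore set by the filter, and the call of 1 marker, Marco, says little. Of 6 tested platelet markers 5 rose, of which Gp9 and Treml1 were under 1 RPKM in every control and passed the filter only through the iPCKO samples, and the list had a sum of 8.18 to 10.1 in controls and 23.5, 46.0 and 66.7. Fibroblast markers were highest in iPCKO 2 as well, with a sum of 646 to 832 in controls and 684, 1040 and 871; limma called 0 of 5, with 2 higher at an unadjusted p under 0.05.

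Plasmacytoid dendritic cell markers, apart from Bst2, which is also a member, were at 0.31 to 0.41 in controls and 0.36 to 0.53 RPKM in iPCKO samples as a sum of 4 genes. Lymphocyte markers were at 7.21 to 8.14 and 4.72 to 7.22 RPKM, and limma called 0 of 3 tested, with 3 lower at an unadjusted p under 0.05. The erythrocyte sum was 6024, 1368 and 2549 RPKM in iPCKO 1, 2 and 3 against 2220 to 2779 in controls, above them in iPCKO 1 and below them in iPCKO 2. Endothelial and smooth muscle sums overlapped between the groups, although Kdr and Vwf of 8 endothelial markers and Cnn1 of 5 smooth muscle markers rose. The epithelial sum was 487 to 537 in controls and 617 to 676 in iPCKO samples, and 2 of 8 markers, Sftpb and Hopx, rose. No marker on any of these lists was listed at 0 in all samples. The part of leukocyte, macrophage and fibroblast RNA and of sequencing depth in the level of Psmb8, Irf1 and the other members was not tested. Against the control mean, Ifit2 stood at -1.02 in iPCKO 1, -0.86 in iPCKO 2 and -0.85 in iPCKO 3 on the log2 scale. Its relation to the marker sums was not tested.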

How the data were processed

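Ribosome-bound RNA was immunoprecipitated from postnatal day 8 lungs, with 3 samples per genotype. The authors prepared stranded total RNA libraries, aligned paired reads with TopHat to mm10 (GRCm38) and counted them per gene with HTSeq (0.6.1 in the submitters' processing notes), and deposited RPKM values per Ensembl gene, one file per sample. The exon lengths behind the RPKM were not given in the sources used here, and the study's DESeq2 test was not repeated, since counts are needed for it. From the RPKM values, symbols and GRCm38 coordinates were added from GENCODE M21 (21375 of 21603 identifiers matched).

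The 12034 genes that reached 1 RPKM in 3 or more of the 6 samples were tested with limma 3.58.1 (R 4.3.3, intensity trend) on log2(RPKM + 0.1), with Benjamini-Hochberg adjustment over all of them and the study's thresholds (adjusted p below 0.01, absolute log2 fold change above 0.5). Members below the filter, and ratios, were compared by exact two-sided permutation tests. The fit was also run on simulated independent values with changes larger than that of any member. That run cannot show how well changes of the members' size are called. Depth was estimated from the step between low values, of which 75.0% to 77.1% per sample lay within 0.02 reads of a whole number, so counts were not recovered. Motifs were searched on both strands of RefSeq promoters. For members past the thresholds, and for the member with the largest fold change in each of 8 role groups, full values are given. The members, lists and rules were chosen with earlier results of these data known. The labels do not tie samples with the same number to each other, and nothing beyond separate labels states that samples were separate animals; p-values measure the spread between these samples. Alternatives were other pseudocounts, no filter, other scalings, no trend, other thresholds, a replicate block and each sample left out. A signalling gene of the pathway lists is not reported here.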

Additional observations from a re-analysis of the deposited data

How the results depend on the processing

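Ifit2 passed the thresholds in every alternative but a fold threshold of 1, under which 0 members passed in either direction. Of 203 fold changes of the 29 tested members under 7 settings that kept all samples, 201 kept direction and call, and 2 were weaker, both of Psmb8. The number of members that rose, 1, became 0 without a filter and without the intensity trend, and ranged from 0 to 3 when a sample was left out, the 3 being Psmb8, Irf1 (0.92) and Gbp2 (1.25) without iPCKO 1. The 817 genes called in all became 1313 at an adjusted p of 0.05, 411 at a fold threshold of 1 and 382 to 899 when a sample was left out (382 without control 3, 414 without iPCKO 2, 499 without iPCKO 3). The 8 called genes of the pathway lists, a count added after the data were seen, became 5 without a filter or trend, 3 at a fold threshold of 1 and 3 to 9 when a sample was left out. Quantile normalization gave a share of rising genes among calls of 53.4% against 60.6%. The cause of these changes was not tested.

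Directions turned only when a sample was left out, in members that were never called: Rsad2 (-0.57 to 0.19), Irf7 (-0.30 to 0.10), Rtp4 (-0.73 to 0.11), Irf9 (-0.07 to 0.51), Eif2ak2 (-0.05 to 0.19), Oasl2 (-0.13 to 0.67), Gbp7 (-0.14 to 0.31), Parp14 (-0.13 to 0.37), Bst2 (-0.30 to 0.06) and Ifi35 (-0.18 to 0.02). The median over members stayed between -0.13 and -0.02. Samples with the same replicate number shared deviations weakly (r = 0.24, 0.09 and 0.02, against -0.3 to 0.27 for different numbers; 4 of 6 correlated best with their own number), and a replicate block gave 922 genes and the same 2 members, 1 in each direction. With 3 samples per group an exact test cannot go below 0.1, and members under 1 RPKM rest on few reads.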
